A study of Mus musculus with 6 samples.

Results

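The inflammatory CC chemokine genes Ccl2, Ccl3, Ccl4, Ccl5, Ccl6, Ccl7, Ccl9 and Ccl12 were followed by RNA sequencing in RAW264.7 macrophages that had been polarized and then irradiated. They were taken from the count tables by their symbols, and all 8 were found among 24062 genes. RAW264.7 is a virus-transformed mouse macrophage cell line, and it is named as the cell line and in the culture protocol although the tissue is labelled bone marrow. M0 macrophages received no polarizing agent. For M1 cells the medium held LPS at 100 ng/mL with IFN-γ at 20 ng/mL, and for M2 cells IL-4 at 20 ng/mL, in each case over 24 h. RM0, RM1 and RM2 macrophages were M0, M1 and M2 cells exposed to 10 Gy of gamma radiation from a cesium source and incubated for a further 24 h. Whether the non-irradiated cells were also kept for these 24 h is not stated, so irradiation and culture time cannot be told apart. RNA from 5 wells was pooled for each condition and gave 1 library, so a comparison of 2 libraries has no replicate check.

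Chemokines are small secreted proteins that direct the movement of leukocytes by binding G protein-coupled receptors. In CC chemokines the first cysteines of the mature protein stand next to each other. Macrophages are a major source of the inflammatory members, whose genes are switched on by LPS through Toll-like receptors and NF-kB and by interferons through JAK kinases and IRF factors. CCL2, CCL7 and CCL12, also called monocyte chemoattractant proteins, act through CCR2 and draw monocytes into tissue. CCL3 and CCL4 are the macrophage inflammatory proteins alpha and beta, and CCL5 is also called RANTES. CCL3 and CCL5 act through CCR1 among other receptors. CCL6 and CCL9 are rodent chemokines that act through CCR1.

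The 8 genes lie in clusters on chromosome 11. Ccl2 (NM_011333, plus strand, 82035577 to 82037452 of GRCm38), Ccl7 (NM_013654, plus strand, 82045712 to 82047523) and Ccl12 (NM_011331, plus strand, 82101845 to 82103399) stood within 67.8 kb. Ccl5 (NM_013653, minus strand, 83525779 to 83530518), Ccl9 (NM_011338, minus strand, 83572917 to 83578636), Ccl6 (NM_009139, minus strand, 83587886 to 83593087), Ccl3 (NM_011337, minus strand, 83647843 to 83649378) and Ccl4 (NM_013652, plus strand, 83662584 to 83664683) stood within 138.9 kb. All are annotated as protein-coding genes with 3 or 4 exons.

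The shared signature of the family can be read in the coding sequences of the GRCm38 annotation. The windows of coding sequence below are shown because they mark these genes as CC chemokines and show how far relatives have diverged around the signature. Capitals mark the adjacent cysteine codons.
Ccl2: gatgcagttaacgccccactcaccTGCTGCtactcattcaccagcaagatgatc
Ccl7: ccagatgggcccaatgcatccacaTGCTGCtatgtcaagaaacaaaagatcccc
Ccl12: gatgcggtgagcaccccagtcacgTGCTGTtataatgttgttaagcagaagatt
Ccl3: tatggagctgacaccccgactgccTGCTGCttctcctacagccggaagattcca
Ccl4: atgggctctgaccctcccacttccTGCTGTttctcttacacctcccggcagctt
Ccl5: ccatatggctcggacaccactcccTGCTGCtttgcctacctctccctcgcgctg
Ccl6: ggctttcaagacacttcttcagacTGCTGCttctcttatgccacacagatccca
Ccl9: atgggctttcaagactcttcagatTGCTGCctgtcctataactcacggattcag
Each coding sequence held 1 such pair. Ccl4 and Ccl12 spell the second cysteine TGT and the other 6 genes spell it TGC. Over the whole coding sequence Ccl3 and Ccl4 were 68.4% identical, Ccl6 and Ccl9 65.1%, Ccl7 and Ccl12 63.5% and Ccl3 and Ccl5 62.5%. No stretch of 100 bases of any of the 8 transcripts was shared with another annotated gene.

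In each library the counts over all genes summed to between 17894937 and 18870516. All 10 macrophage markers that were looked up were present in every library, while the mast cell and epithelial markers were at 0 and T and B cell markers had at most 4 counts in sum. Dendritic cell markers had 15 to 36 counts in sum and endothelial markers 0 to 13. Some markers of other cells were higher in the M1 and RM1 libraries. The neutrophil list ran from 140.3 to 3099 CPM in sum (counts relative to the scaled size of the library), and nearly all of it was S100a8, with 4580 and 6667 counts without and with irradiation in M0 cells, 32464 and 51228 in M1 cells and 2846 and 3492 in M2 cells. In the same list S100a9 had at most 19 counts, Mpo at most 3 and Elane at most 1. The fibroblast list ran from 6.47 to 46.2 CPM, mostly from Dcn, with 113 counts in M0, 627 in M1 and 726 in RM1. Lum had 8 and 10 counts without and with irradiation in M0 cells, 14 and 34 in M1 cells and 16 and 14 in M2 cells. Col1a1 went the other way to Dcn, with 6 counts in M0, 1 in M1, 11 in RM0 and 0 in RM1. Col1a2 and Col3a1 were at 0 in all 6 libraries. The libraries were made from a cell line, and neither the presence of other cells nor a part of theirs in the chemokine differences was tested. In bulk RNA, fewer cells making a transcript and less transcript per cell cannot be told apart.

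The 8 chemokines differed widely in abundance. Levels are given in CPM after scaling with the trimmed mean of M-values (TMM), and per kb of annotated transcript where genes are compared. Per kb, Ccl3 was the highest of the 8 in every library, from 3499 CPM in M2 to 6334 in RM1. In M0 it was followed by Ccl4 at 1964 CPM per kb and Ccl9 at 561.2. Ccl5 and Ccl2 came next at 68.2 and 64.2, then Ccl7 at 16.2, Ccl6 at 1.23 and Ccl12 at 0.0942. In M1 the order changed below Ccl3, with Ccl9 at 1384 CPM per kb, Ccl4 at 1307 and Ccl5 at 1252. Ccl3 ranked between 16 and 30 among all genes by counts and Ccl9 between 18 and 38. Together the 8 genes took 0.647% of all counts in M0 against 0.681% in RM0, 0.744% in M1 against 1.02% in RM1 and 0.636% in M2 against 0.696% in RM2. RM1 macrophages thus gave the largest summed chemokine share of the 6 libraries.

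**Figure D1:**
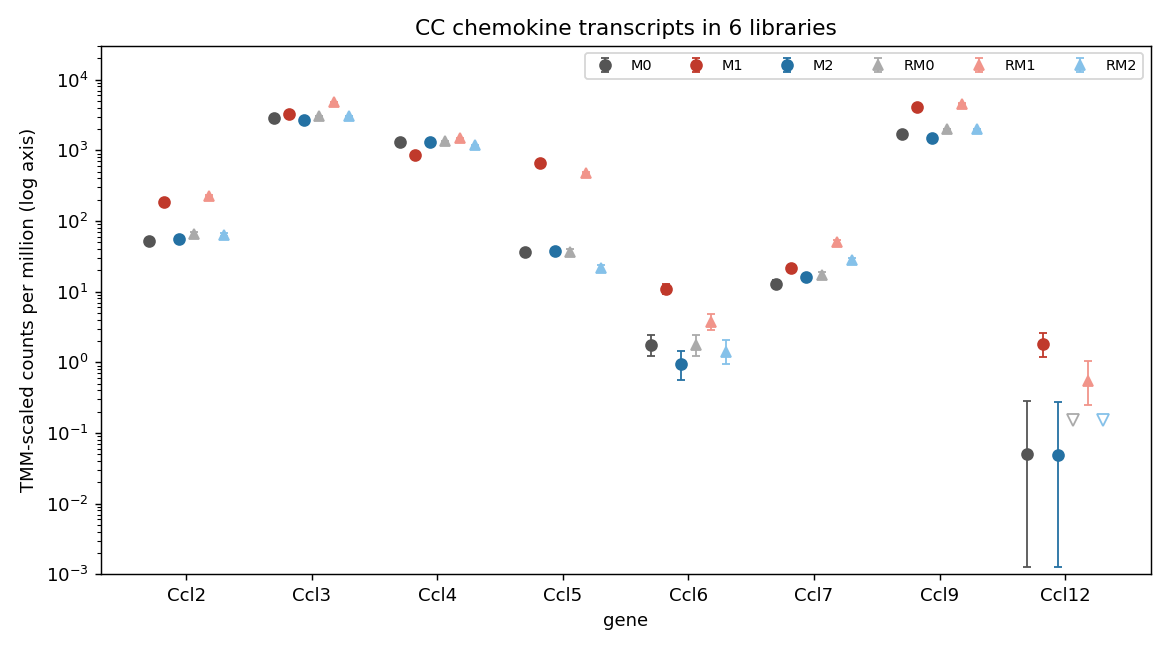
TMM-scaled CPM (log axis) of the 8 CC chemokine genes, 1 point per library, circles for non-irradiated and triangles for irradiated cells, with bars for the 95% counting interval. Open triangles mark 0 counts, drawn at the level of 3 counts. Ccl5 stands highest in M1 and RM1, and Ccl12 reached 27 counts in M1 and 9 in RM1 and at most 1 elsewhere.

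The first question was how classical activation with LPS and IFN-γ moved these genes. Between the M1 and M0 libraries 5 of the 8 genes were called higher and 0 lower, where a call needs a 2-fold difference and a minimum of 10 counts in either library. Over all 11778 genes that reached this count, 8.98% were called higher and 13.7% lower. The called genes were Ccl2, Ccl5, Ccl6, Ccl9 and Ccl12, and Ccl12 reached the count minimum only through its M1 library. On the log2 scale the median difference of the 8 genes was 1.56, beside -0.05 over all genes tested. Without Ccl12 the middle value was that of Ccl9, 1.30. In irradiated cells, RM1 against RM0, 7 genes could be compared and 5 were called higher and 0 lower, against 6.26% higher and 7.84% lower of 11713 genes. There the called genes were Ccl2, Ccl5, Ccl6, Ccl7 and Ccl9. The median of the 7 genes, which leave out Ccl12, was 1.19, beside -0.001 over all genes. These comparisons use different libraries. Scaling by library totals moved the median of all genes by -0.41 in M1 against M0, by -0.25 in RM1 against RM0 and by 0.11 in RM1 against M1 on the log2 scale. It also moved the share of calls that were higher from 39.6% to 16.8% in M1 against M0 and from 44.4% to 25% in RM1 against RM0. Changes below are relative to the TMM scale.

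An additive model of polarization and irradiation over the 6 libraries was fitted with edgeR's quasi-likelihood test, in which the states stand in for replicates and each effect is assumed to be the same in all of them. It left 2 residual degrees of freedom. Of the 7 chemokines that passed its filter, a minimum of 10 counts in 3 or more libraries, 5 rose with M1 polarization and 0 fell. Over all 11574 genes 23.3% rose and 24.3% fell. Ccl12 did not pass the filter.

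**Figure D2:**
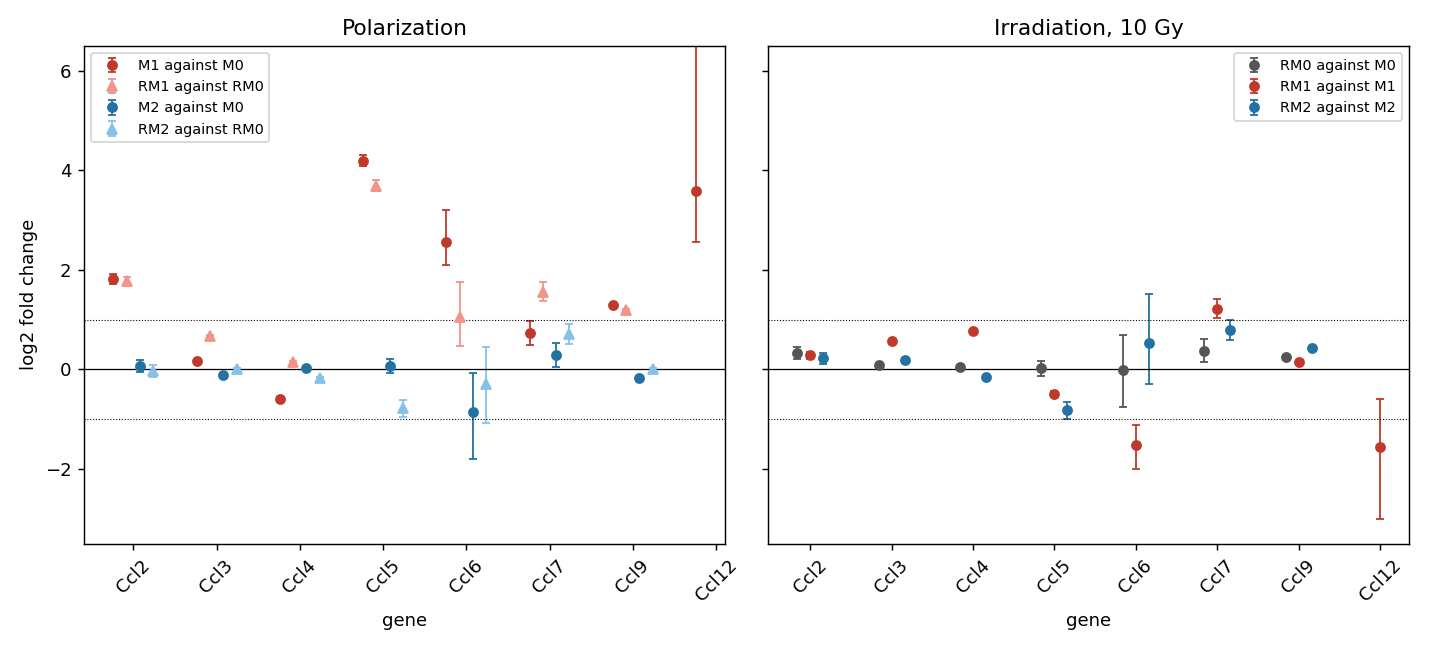
Log2 fold changes of the chemokines that reached 10 counts in either library, for polarization (left) and irradiation (right), with 95% counting intervals as bars and dotted lines at 2-fold. Ccl5 differs most between RM1 and RM0 (3.69), and Ccl7 is the member above the upper dotted line in RM1 against M1 (1.22). The upper bar of Ccl12 in M1 against M0 runs past the top of the plot.

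Among the CCR2 ligands, Ccl2 had counts of 1032 in the M0 library against 1276 in its irradiated counterpart, 2752 against 3690 for M1 and 1113 against 1269 for M2. The M1 and RM1 libraries stood above the other 4. Ccl2 was 3.52-fold higher in M1 than in M0 (95% counting interval 3.27 to 3.78) and 3.41-fold higher in RM1 than in RM0 (3.20 to 3.64). In the additive model it rose with M1 polarization by a log2 fold change of 1.80 ± 0.119 (SE), with a Benjamini-Hochberg adjusted p of 2.095e-06 in edgeR's quasi-likelihood test. Irradiation moved it little. The log2 fold change was 0.33 in RM0 against M0, 0.28 in RM1 against M1 and 0.22 in RM2 against M2, a mean of 0.28 ± 0.0518 (SD, 3 states), and the adjusted p in the same test was 0.247.

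Ccl7, which follows Ccl2 on the same strand after a gap of 8259 bases, had 257 and 330 counts without and with irradiation in M0 cells, 323 and 831 in M1 cells and 323 and 550 in M2 cells. The libraries with the most were RM1 and RM2. It was 1.66-fold higher in M1 than in M0 (1.40 to 1.96), short of the 2-fold call, and 2.97-fold higher in RM1 than in RM0 (2.61 to 3.38). With M1 polarization it rose by 1.18 ± 0.181 (SE), edgeR adjusted p 0.000441. Ccl7 was also the single member that passed the test for irradiation, which is described below. The ratio of Ccl2 to Ccl7 counts, which does not depend on the scaling between libraries, was 4.02 in the M0 library against 3.87 in its irradiated counterpart, 8.52 against 4.44 for M1 and 3.45 against 2.31 for M2. These neighbours therefore did not move by equal amounts.

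Ccl12 was close to the limit of detection, with 1 and 0 counts without and with irradiation in M0 cells, 27 and 9 in M1 cells and 1 and 0 in M2 cells. A count of 0 allows up to 3 counts, 0.154 CPM in RM0 and 0.151 in RM2. The ratio of M1 to M0 was 35.6, with a counting interval from 5.87 to 1458. RM1 was 3.54-fold higher than RM0 when 3 counts were taken for RM0, and the counting interval of this ratio began at 2.33. The 9 counts of RM1 fell short of the minimum for a call.

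Among Ccl3, Ccl4 and Ccl5, which attract T cells and monocytes, Ccl5 had the widest range, 31.0-fold between its lowest and highest library. It had counts of 718 in the M0 library against 719 in its irradiated counterpart, 9987 against 7869 for M1 and 773 against 426 for M2. The M1 and RM1 libraries stood far above the other 4. Ccl5 was 18.3-fold higher in M1 than in M0 (17 to 19.8) and 12.9-fold higher in RM1 than in RM0 (11.96 to 13.95). The log2 change with M1 polarization was 3.94 ± 0.192 (SE), edgeR adjusted p 3.267e-07. The difference between the changes in irradiated and non-irradiated cells was -0.51 (-0.662 to -0.352), an interval that covers counting error only.

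Ccl3 and Ccl4, the nearest pair in coding sequence, were abundant in every library and moved the least of the 8. Ccl3 had 56982 and 59530 counts without and with irradiation in M0 cells, 48805 and 80239 in M1 cells and 54431 and 60786 in M2 cells. The RM1 library was the highest. Its log2 fold change was 0.18 (0.158 to 0.193) in M1 against M0, which turned to -0.24 with library totals and to -0.23 with trends in GC content and length removed, and 0.67 (0.653 to 0.684) in RM1 against RM0. In the additive model it was 0.43 ± 0.175 (SE) with an edgeR adjusted p of 0.060, which ranged from 0.011 to 0.634 over 7 alternatives.

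Ccl4 had counts of 25632 in the M0 library against 26046 in its irradiated counterpart, 12939 against 24363 for M1 and 26717 against 23459 for M2. The M1 library stood below the other 5. Its log2 fold change was -0.59 (-0.618 to -0.556) in M1 against M0 and 0.14 (0.116 to 0.167) in RM1 against RM0, the latter -0.11 with library totals and -0.15 with GC and length trends removed. In M1 against M0 the same alternatives gave -1.004 and -1.013, past the 2-fold call. The additive model gave -0.19 ± 0.200 (SE), edgeR adjusted p 0.456. The ratio of Ccl3 to Ccl4 counts was 2.22 and 2.29 without and with irradiation in M0 cells, 3.77 and 3.29 in M1 cells and 2.04 and 2.59 in M2 cells, so the balance of the pair leaned further to Ccl3 in both libraries treated with LPS and IFN-γ.

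Of the rodent CCR1 ligands, Ccl9 was abundant, with counts of 33365 in the M0 library against 39185 in its irradiated counterpart, 62390 against 75964 for M1 and 30473 against 39886 for M2. The M1 and RM1 libraries stood above the other 4. It was 2.47-fold higher in M1 than in M0 (2.43 to 2.499) and 2.29-fold higher in RM1 than in RM0 (2.26 to 2.31). With M1 polarization it rose by 1.26 ± 0.163 (SE), edgeR adjusted p 0.000151. With library totals both differences fell below 2-fold, at 0.89 and 0.94 on the log2 scale.

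Ccl6, which stands next to Ccl9 and is its nearest relative in coding sequence, was scarce, with 35 and 34 counts without and with irradiation in M0 cells, 165 and 62 in M1 cells and 19 and 28 in M2 cells. The M1 library was the highest and RM1 came second. It was 6.22-fold higher in M1 than in M0 (4.30 to 9.23) and 2.15-fold higher in RM1 than in RM0 (1.39 to 3.37). With M1 polarization it rose by 1.98 ± 0.415 (SE), edgeR adjusted p 0.00283. In RM1 against RM0 it fell below the call with library totals, at 0.81 on the log2 scale, and with GC and length trends removed, at 0.82.

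**Figure D3:**
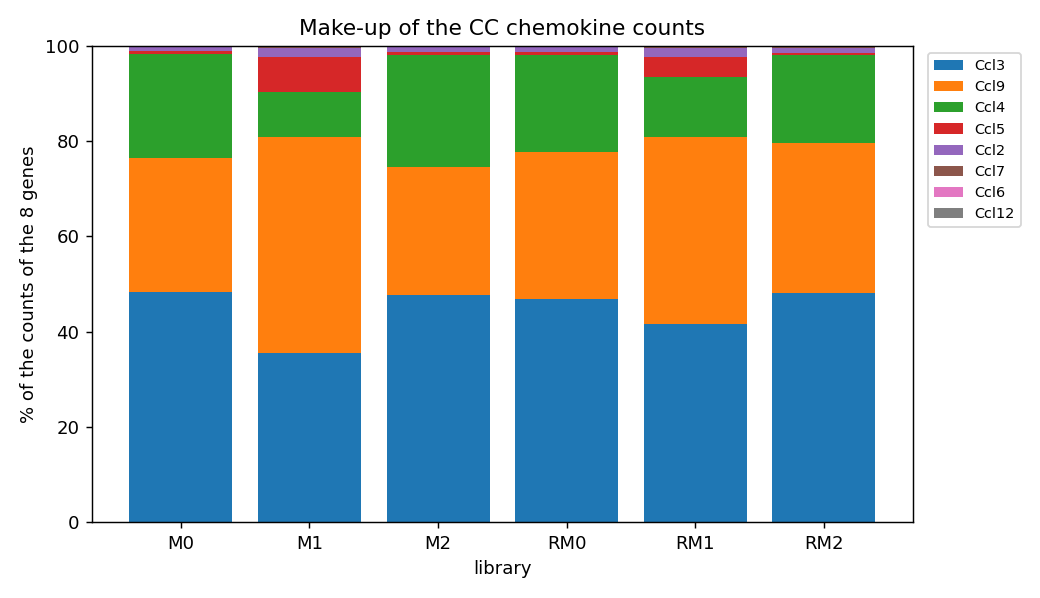
Share of each gene in the summed counts of the 8 chemokines in each library, as stacked bars from 0 to 100%. Ccl9 takes 45.4% in M1 and 39.4% in RM1 against 28.3% in M0, and the share of Ccl4 is smallest in M1.

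The chemokine mixture shifted with these differences. Ccl3 made up 48.3% of the counts of the 8 genes in M0 and 35.5% in M1, Ccl4 21.7% and 9.42%, Ccl9 28.3% and 45.4%, and Ccl5 0.608% and 7.27%. In RM1 the values lay between those of M0 and M1, at 41.6% for Ccl3, 12.6% for Ccl4, 39.4% for Ccl9 and 4.08% for Ccl5. These shares are within a library and carry no scaling.

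Polarization with IL-4 gave no call among the chemokines. In M2 against M0, 0 of the 7 genes compared were higher or lower, where 0.995% of 11762 genes were higher and 0.442% lower. In RM2 against RM0, 0 of 7 were called, where 1.63% of 11748 genes were higher and 0.97% lower. The medians of the 7 genes were 0.02 and -0.03 on the log2 scale, beside -0.01 and -0.009 over all genes. In M2 against M0, Ccl6 stood at -0.85 (-1.81 to -0.074) on the log2 scale on 19 and 35 counts, and Ccl7 0.29 (0.051 to 0.534). In RM2 against RM0, Ccl5 had -0.78 (-0.956 to -0.605) and Ccl7 0.71 (0.513 to 0.913). In the additive model 0 of 7 passed edgeR's quasi-likelihood test, where 0.156% of genes rose and 0.0346% fell. At an unadjusted p under 0.05 it gave 1 of the 7, Ccl7, and 1173 of 11574 genes, and DESeq2 also called 0 of the 7. Without the M1 and RM1 libraries the test called Ccl7, with a log2 fold change of 0.53 (adjusted p 0.00104), and Ccl5, with -0.32 (adjusted p 0.0412). In that setting it called 1322 of all 11457 genes tested.

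The next question was how the irradiated cells differed. In unpolarized cells 0 of the 7 chemokines compared were called in RM0 against M0, where 0.727% of 11688 genes were higher and 0.813% lower, and the widest difference was that of Ccl7 at 0.38 (0.141 to 0.622) on the log2 scale. In M2 cells 0 of 7 were called in RM2 against M2, where 1.03% of 11801 genes were higher and 0.932% lower. There the log2 difference was -0.82 (-1 to -0.654) for Ccl5 and 0.80 (0.601 to 1.004) for Ccl7. In M1 cells 1 of the 8 was called higher and 2 lower in RM1 against M1, where 3.23% of 11443 genes were higher and 2.09% lower. Ccl12, 1 of these 2, reached the count minimum only through its M1 library. The medians of the genes compared were 0.08 in RM0 against M0, 0.21 in RM1 against M1 and 0.22 in RM2 against M2, beside 0.002, 0.02 and -0.001 over all genes. Only the RM1 against M1 median includes Ccl12. Without it the middle value in that pair was that of Ccl2, 0.28.

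Ccl7 was the gene called higher in RM1 against M1, at 2.33-fold (2.05 to 2.66). It was higher after irradiation in 3 of 3 states, with a mean log2 fold change of 0.80 ± 0.420 (SD). Its log2 change exceeded that of unpolarized cells by 0.84 (0.542 to 1.141) in M1 cells and by 0.42 (0.113 to 0.728) in M2 cells. Both intervals cover counting error only, while the additive model assumes the same effect in all states. In that model Ccl7 rose with irradiation by 0.80 ± 0.147 (SE), with an edgeR adjusted p of 0.0459. It was the 1 of 7 chemokines that passed, where 0.346% of all genes rose and 0.13% fell. At an unadjusted p under 0.05 there were 3 of the 7 and 1707 of all genes. The call is near the threshold. The adjusted p was 0.205 with library totals and 0.0659 with the filter raised to 50 counts, and it ranged from 0.000116 to 0.9999 over 9 alternatives, where the highest came from the model that leaves polarization out.

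Ccl6 and Ccl12 were called lower in RM1 than in M1. Ccl6 was 2.93-fold lower, at -1.53 on the log2 scale (-2.00 to -1.12), and Ccl12, which was compared only because of its 27 counts in M1, was 3.31-fold lower on 9 counts in RM1, with an interval from -3.00 to -0.595. In the other states the value of Ccl6 was -0.02 (-0.746 to 0.702) in RM0 against M0 and 0.54 (-0.299 to 1.51) in RM2 against M2. The difference of its changes in M1 and unpolarized cells was -1.53 (-2.33 to -0.731) by counting error alone, and its model value for irradiation was -0.60 ± 0.362 (SE), edgeR adjusted p 0.457.

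Ccl5 had log2 fold changes of 0.02 (-0.129 to 0.173) in RM0 against M0, -0.49 (-0.528 to -0.442) in RM1 against M1 and -0.82 in RM2 against M2. Over the 3 states its model value was -0.44 ± 0.144 (SE), with an edgeR adjusted p of 0.207. Without the M0 and RM0 libraries it was -0.66 with an adjusted p of 0.0471, and without the M1 and RM1 libraries it was -0.38 with 0.0213. Without M1 and RM1 the test also called Ccl9, at 0.34 with an adjusted p of 0.00597. Over all genes it called 174 of 11176 without M0 and RM0 and 522 of 11457 without M1 and RM1.

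Ccl3, Ccl4 and Ccl9 did not pass the test for irradiation, with adjusted p of 0.400, 0.574 and 0.381 in edgeR's test and model values of 0.27 ± 0.142, 0.21 ± 0.164 and 0.26 ± 0.131 (SE). Ccl3 and Ccl9 were higher in 3 of 3 states, except that Ccl9 in RM1 against M1 (0.14) turned to -0.08 with GC and length trends removed. Without M1 and RM1 the model values of Ccl4 and Ccl6 turned to -0.05 and 0.24. For Ccl3 the change was larger in M1 cells, 0.58 (0.560 to 0.592), than in unpolarized cells, 0.08 (0.067 to 0.1), and in M2 cells, 0.19 (0.176 to 0.210), beyond counting error. Ccl4 had a log2 fold change of 0.77 (0.741 to 0.803) in M1 cells, where 12939 counts stood against 24363.

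**Figure D4:**
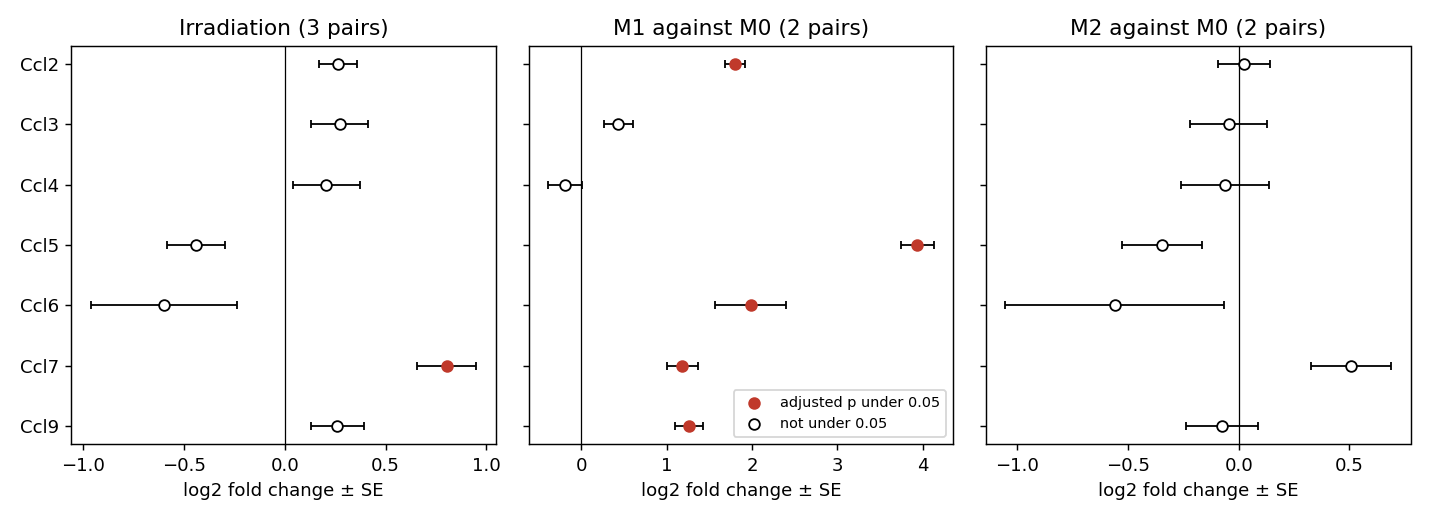
Log2 fold changes of the 7 chemokines in the additive model of 6 libraries, with bars of 1 SE, for irradiation, M1 polarization and M2 polarization. Filled points passed an adjusted p of 0.05 in edgeR's quasi-likelihood test, which were 1 gene for irradiation, 5 for M1 and 0 for M2.

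The other genes of the pathway were taken from lists of ligands, receptors and signaling genes. Of 15 other CC chemokine genes in the table, 2 had enough counts to be compared, and both fell with M1 polarization in edgeR's test. Over all 11574 genes 23.3% rose and 24.3% fell in that test, and 2 genes are too few to read against these shares. The log2 change was -2.40 ± 0.176 (SE) for Ccl22, adjusted p 3.817e-06, and -1.09 ± 0.267 for Ccl25, adjusted p 0.006554. Ccl22, a ligand of CCR4, had counts of 767 in the M0 library against 802 in its irradiated counterpart, 118 against 119 for M1 and 590 against 827 for M2, a log2 fold change of -2.29 in M1 against M0 and -2.50 in RM1 against RM0. Ccl25, a ligand of CCR9, had 87 counts in M0 and 27 in M1, a log2 fold change of -1.24, and -0.91 in RM1 against RM0. These ligands thus went the opposite way to Ccl2, Ccl5, Ccl6, Ccl7 and Ccl9.

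Among Ccr1, Ccr2 and Ccr3, receptors of these chemokines, Ccr1 was the most abundant in counts, with 1593 and 1851 without and with irradiation in M0 cells, 608 and 1599 in M1 cells and 1506 and 1866 in M2 cells. The M1 library was lowest, at -0.99 on the log2 scale against M0 and just short of the call, and RM1 was called higher than M1 at 1.25. Ccr2, the receptor of CCL2, CCL7 and CCL12, had counts of 85 in the M0 library against 96 in its irradiated counterpart, 27 against 56 for M1 and 112 against 175 for M2, and fell with M1 polarization by 0.85 ± 0.262 (SE) on the log2 scale, edgeR adjusted p 0.0203. Ccr3, a receptor of CCL5, had at most 13 counts. Of 15 receptor genes, 1 was called higher and 2 lower of 4 compared in M1 against M0, and 1 higher and 1 lower of 5 in RM1 against RM0, too few to read against the shares over all genes (8.98% and 13.7%, then 6.26% and 7.84%). Called in both were Ccrl2, a chemokine-binding receptor that does not signal, which was higher at 1.43 and 1.55, and Ccr7, the lymph node homing receptor, which was lower at -3.57 and -2.79, with 39 counts in M0 and 1 in M1. Ccr7 was also called lower in M2 against M0 (-1.06) and in RM2 against RM0 (-1.71).

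Of 40 LPS and interferon signaling genes, 10 were called higher and 2 lower in M1 against M0, and 7 higher and 0 lower of 39 in RM1 against RM0. Over all genes these shares were 8.98% and 13.7% in M1 against M0 and 6.26% and 7.84% in RM1 against RM0. In the additive model 17 of 39 rose with M1 polarization and 9 fell, beside 23.3% and 24.3% of all genes. Irf1, an interferon-induced transcription factor, had log2 fold changes of 4.76 in M1 against M0 and 2.31 in RM1 against RM0. In the same order Irf7, the regulator of type I interferon genes, had 3.64 and 2.80, and Tnfaip3, which encodes the NF-kB inhibitor A20, had 2.77 and 1.81. After irradiation 0 of 39 passed in the additive model, where 0.346% of all genes rose and 0.13% fell. In RM1 against M1, 1 of 39 was called higher and 2 lower, beside 3.23% and 2.09% of all genes. In that pair, where Ccl6 and Ccl12 were lower, Irf1 (-2.47) and Irf8 (-1.74) were called lower and Tlr4, the receptor of LPS, higher (1.55). Tlr4 had been called lower in M1 against M0 (-2.05), and RM1 stood at -0.45 against RM0. Irf8 and Tlr4 are named because so few genes were called and were chosen after their values were seen. Of 7 IL-4 signaling genes, 4 of 6 compared were called higher in M1 against M0 (8.98% of all genes) and 3 in RM1 against RM0 (6.26%), among them the IL-4 receptor gene Il4ra (1.80 and 1.51), Socs1 (3.76 and 1.55) and Cish (1.55 and 1.72), of which Socs1 and Cish encode inhibitors of cytokine signaling. In M2 against M0 0 of 6 were called (0.995% of all genes higher and 0.442% lower) and in RM2 against RM0 Cish was called higher at 1.87 (1.63% of all genes higher). In the additive model Cish rose with IL-4 by 1.47 ± 0.233 (SE), edgeR adjusted p 0.0372.

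Chemokine mRNAs are short-lived, so regulators of mRNA decay were examined as well. Of 9 such genes 2 were called higher in M1 against M0, where 8.98% of all genes were. The same 2 of 9 were called higher in RM1 against RM0, where 6.26% of all genes were. Zfp36, which encodes tristetraprolin, a protein that promotes decay of AU-rich mRNAs, had log2 fold changes of 1.94 and 1.62, and Zfp36l1 had 1.64 and 1.45. Zfp36l1 was also called higher in RM2 against M2 (1.07), as 1 of 9, where 1.03% of all genes were.

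Genes with the most similar pattern over the 6 libraries were then looked up for each chemokine that spanned at least 2-fold, by the root mean square distance of centred log2 CPM among genes that averaged 100 counts or more. This is a description over 6 points and was not tested. For Ccl2 the nearest of 9411 genes was Zfp36, at a distance of 0.0796, followed by Rapgef5 at 0.118. Zfp36 had 7927 and 9974 counts without and with irradiation in M0 cells, 23058 and 26010 in M1 cells and 9112 and 10134 in M2 cells. For Ccl5 they were Rsad2 (0.193) and Ifit3 (0.216), both interferon-stimulated antiviral genes. Rsad2 had counts of 1061 in the M0 library against 864 in its irradiated counterpart, 12449 against 9317 for M1 and 1188 against 716 for M2, so it shared with Ccl5 the high values of M1 and RM1 and the lowest value in RM2. For Ccl7 they were Lif (0.178), which encodes a cytokine of the IL-6 family, and Arg2 (0.192), which encodes the mitochondrial arginase. Lif was highest in RM1 with 7073 counts and second in RM2 with 4353, as Ccl7 was. For Ccl9 they were Npepps (0.0260), an aminopeptidase gene, and St3gal1 (0.0435), a sialyltransferase gene. For Ccl6 they were Il15ra (0.268), which encodes a subunit of the IL-15 receptor, and Mov10 (0.281), an RNA helicase gene. For Ccl12 they were AW011738 (0.149) and the guanylate-binding protein gene Gbp7 (0.209), but with at most 27 counts its pattern depends on the prior count.

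**Figure D5:**
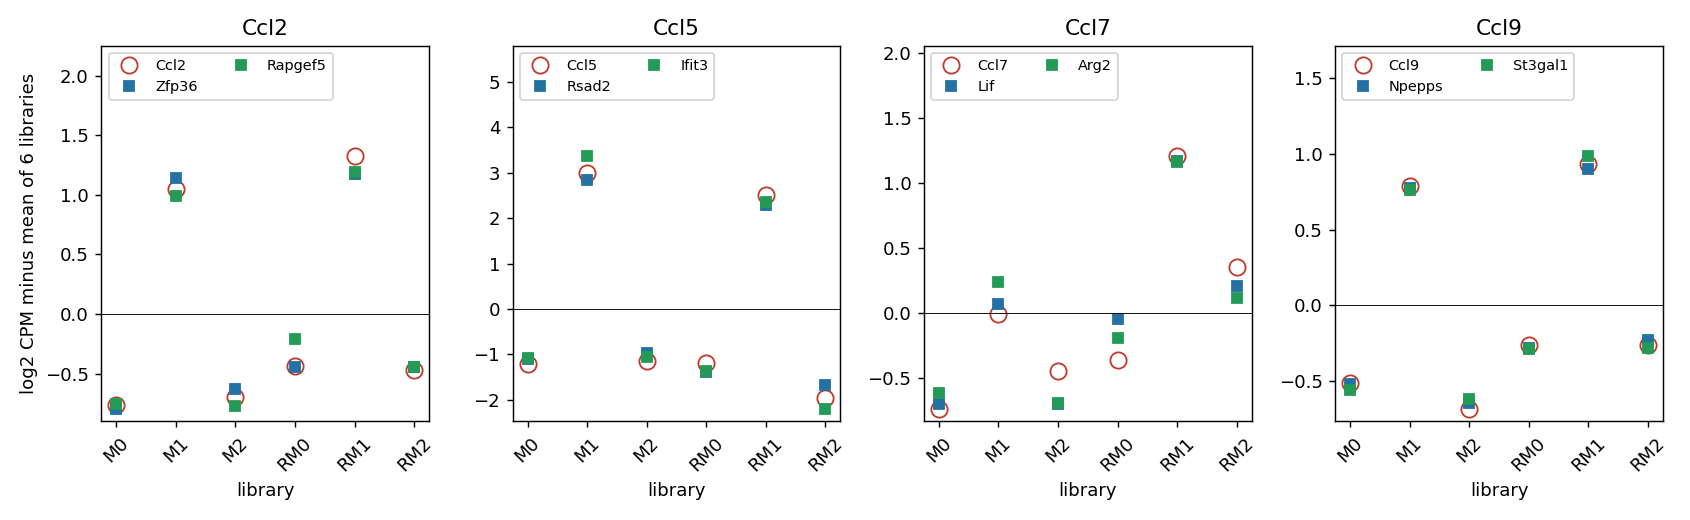
Log2 CPM minus its mean over the 6 libraries for Ccl2, Ccl5, Ccl7 and Ccl9 (open circles) and the 2 genes nearest to each (squares), 1 point per library. Ccl2, Ccl5 and Ccl9 stand above 0 in M1 and RM1 only, while Ccl7 is highest in RM1 and second in RM2.

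The RefSeq promoter table held 4 of the 8 genes, Ccl3, Ccl6, Ccl9 and Ccl12. The 250 bases before the start of transcription of 3 of them are shown, 5′ to 3′ in GRCm38.p6, since Ccl9 and Ccl6 are neighbours that both rose with M1 polarization from very different levels, and Ccl3 is abundant and was not called in any of the 7 pairs. Capitals mark matches to a motif on either strand.
Ccl3 (chr11:83649379-83649628, minus strand): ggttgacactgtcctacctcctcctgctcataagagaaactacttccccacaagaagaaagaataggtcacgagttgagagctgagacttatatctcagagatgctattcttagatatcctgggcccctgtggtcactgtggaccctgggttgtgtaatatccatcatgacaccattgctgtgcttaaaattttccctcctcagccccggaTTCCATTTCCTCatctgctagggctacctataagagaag
Ccl9 (chr11:83578637-83578886, minus strand): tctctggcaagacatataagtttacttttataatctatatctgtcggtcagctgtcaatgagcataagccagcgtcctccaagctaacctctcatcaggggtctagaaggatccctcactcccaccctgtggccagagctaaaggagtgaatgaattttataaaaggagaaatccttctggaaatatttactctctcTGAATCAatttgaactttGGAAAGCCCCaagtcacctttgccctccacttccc
Ccl6 (chr11:83593088-83593337, minus strand): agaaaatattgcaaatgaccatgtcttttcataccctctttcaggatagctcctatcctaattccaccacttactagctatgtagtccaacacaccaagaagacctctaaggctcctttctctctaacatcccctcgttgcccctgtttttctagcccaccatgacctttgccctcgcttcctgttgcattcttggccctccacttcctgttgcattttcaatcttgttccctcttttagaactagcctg
The motifs searched were NF-kB by name, the IFN-γ activated sequence GAS (TTCNNNGAA), the interferon response core (ISRE core, GAAANNGAA), AP-1 (TGANTCA) and the PU.1 core (GAGGAA), which were found in 7.25%, 7.02%, 7.13%, 6.75% and 23.3% of 32851 promoters of this length. The Ccl9 window held an NF-kB match 35 to 26 bases before the start and an AP-1 match 53 to 47 bases before it. The Ccl3 window held an ISRE core match at 39 to 31 and a PU.1 core match at 33 to 28, which overlap. The Ccl12 window held a PU.1 core match at 130 to 125, and the Ccl6 window held none of these letters. A match describes the sequence and is no evidence of binding.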

How the data were processed

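RNA of 6 libraries of RAW264.7 cells, 1 per condition and each pooled from 5 wells, was sequenced. The values deposited are raw counts, which the authors obtained with HTSeq for 24062 RefSeq genes and did not normalize. The submitters' processing notes name Trimmomatic (0.36), HISAT2 (2.2.1), HTSeq (0.11.3) and the build mm10, and the strand setting is not given in the sources used here. The depth per library, 17894937 to 18870516 counts, limits precision chiefly for Ccl6 and Ccl12.

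Counts were scaled by TMM factors (edgeR 4.0.16, R 4.3.3), which ranged from 0.812 in M1 to 1.14 in M2. A prior count of 2 was used for log2 fold changes, and fold changes printed as ratios of scaled counts used none. Such pairs carry no p-value. Intervals at 95% for pairs are exact Clopper-Pearson intervals of the split of counts. Those for differences of changes are normal approximations from the counts, and those of the plotted CPM levels are exact Poisson limits. Like the limit of 3 counts, these intervals cover counting error only. The additive model (polarization and irradiation) was fitted over all 11574 genes that passed its filter, with Benjamini-Hochberg adjustment at 0.05, and was tested on simulated data. Because states stand in for replicates, its p-values rest on the spread of effects between states. The quasi-likelihood fit draws the spread of each gene toward a trend over all genes, so a p-value does not measure that gene's spread alone. DESeq2 (1.42.0) size factors and test, library totals, other filters, prior count and threshold, removal of GC and length trends (values for 99.4% of genes), a model without the other factor and each state left out were alternatives. TMM factors from filtered genes were an alternative chosen after seeing the data.

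The members and gene lists were chosen with earlier results of these data known. All 8 members were named, with the 2 nearest genes for each that spanned 2-fold, the receptors Ccr1, Ccr2 and Ccr3, and up to 4 genes a list (other CC chemokines, CC chemokine receptors, LPS and interferon signaling, IL-4 signaling, mRNA decay regulators) called the same way in both M1 comparisons, in both M2 comparisons or in at least 2 of the 3 irradiation pairs. Some genes that this rule takes are not reported here. Transcript lengths and coding sequences came from GENCODE M21 (GRCm38), promoters from RefSeq. Annotation and plots were made in Python 3.11.15 (pandas 2.3.3, biopython 1.88, matplotlib 3.10.9).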

Additional observations from a re-analysis of the deposited data

Results flagged for a closer look

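Ccl4 differed after irradiation in opposite directions between states. Its log2 fold change was 0.043 in RM0 against M0, 0.772 in RM1 against M1 and -0.154 in RM2 against M2, and the 95% counting intervals, 0.018 to 0.068, 0.741 to 0.803 and -0.179 to -0.129, all lay off 0. With library totals the RM0 value was -0.009. Ccl5 and Ccl6 also had values of both signs over the states, but for Ccl5 the positive value (0.02) and for Ccl6 the positive value (0.54) had intervals that include 0. None of the Ccl4 values reached 2-fold. With 1 library per condition the difference between states was not tested.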

How the results depend on the processing

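No paired analysis was possible because each condition had 1 library and the labels carry no replicate numbers that pair libraries, beyond the pairing of irradiated with non-irradiated cells of the same state that the additive model makes. At a 4-fold threshold the number of chemokines called was 3 in M1 against M0 (Ccl5, Ccl6 and Ccl12), 0 in RM1 against M1 and 1 in RM1 against RM0 (Ccl5). With library totals it was 3 in RM1 against RM0 (Ccl2, Ccl5 and Ccl7) and 0 for irradiation in the additive model. For irradiation it was also 0 with the filter raised to 50 counts and 0 in the model without polarization. Leaving out the libraries of each state in turn gave 1 to 3 chemokines for irradiation, 2 without M0 and RM0 (Ccl5 and Ccl7), 3 without M1 and RM1 (Ccl5, Ccl7 and Ccl9) and 1 without M2 and RM2 (Ccl7), and 2 for M2 polarization without M1 and RM1 (Ccl5 and Ccl7). With 4 libraries the model keeps 1 residual degree of freedom. Ccl6 could not be fitted with the filter at 50 counts. The cause of these shifts was not tested. The other 69 recomputed counts lay within 1.5 times the reported ones, and no called gene changed direction. A like count can hold other genes. In M1 against M0 the 5 called with library totals were Ccl2, Ccl4, Ccl5, Ccl6 and Ccl12. There Ccl4 was called lower (-1.004 on the log2 scale) and Ccl9 was no longer called (0.885). With GC and length trends removed Ccl4 was also called lower (-1.013), beside the genes called higher. Over all genes irradiation called 55, beside 114 with DESeq2, 3 with library totals, 134 without the filter, 32 with the filter at 50 counts, 0 without polarization in the model and 79 to 522 with a state left out. M2 polarization called 22, beside 41 with DESeq2, 3 with library totals, 45 without the filter, 12 with the filter at 50 counts, 0 without irradiation in the model and 1322 without M1 and RM1. Depth limits Ccl12, with 0 to 27 counts, and Ccl6, with 19 to 165.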
